A study of Mus musculus with 18 samples.

Results

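The genes of the cytosolic ribosomal proteins were examined in a catalog of accessible chromatin from mouse macrophages. They were chosen by symbol among the protein-coding genes of the GENCODE M21 annotation (mm10): Rpl or Rps followed by a number and an optional suffix a, x, l or y, together with Rplp0, Rplp1, Rplp2 and Rpsa. The Rps6k kinases were left out. The rule found 80 of 21938 protein-coding genes, and no measured value was used to choose them. Of these, 30 encode proteins of the small subunit, 43 proteins of the large subunit, 3 the stalk proteins and 4 are paralogs (Rpl3l, Rpl10l, Rpl39l and Rps27l).

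Each cytosolic ribosome has a small subunit, which reads the mRNA, and a large subunit, which forms the peptide bonds, and their proteins are needed in nearly equal amounts. The genes are short, are transcribed strongly in most cell types, and often carry snoRNA genes in their introns, whose products guide the modification of ribosomal RNA. Most of the mRNAs begin with a C followed by a run of pyrimidines (the 5′ terminal oligopyrimidine or TOP motif), through which their translation is tied to growth signals. The genes also left many processed pseudogenes in the genome, which copy the exons but not the promoter.

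Accessibility had been measured by ATAC-seq, in which the Tn5 transposase cuts exposed DNA and tags the ends for sequencing. The cells were wild type BMDMs (bone marrow-derived macrophages), grown in culture from marrow precursors of mice. In all groups the vehicle DMSO was given for 1 h. BMDMs then received no stimulus (1 group), LPS at 10 ng/mL (4 groups: 30 min, 1 h, 2 h and 4 h) or IL-4 at 10 ng/mL (4 groups with the same times), with 2 libraries per group and 18 libraries in all. LPS is a bacterial cell wall component sensed by TLR4, and IL-4 is a cytokine of alternative macrophage activation. The labels do not say whether the libraries of a group came from different mice, and the methods of the study give the mice as C57/BL6 males aged 6 to 8 weeks. A culture of this kind lacks the surroundings of a tissue macrophage.

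The authors pooled all libraries into 3 lists, with 82391 reference peaks, 59617 extended regions (joined peaks with added flanks) and 84660 summits (the position of maximal signal within a peak), and only the summits have a score. The scale of this score is not stated. None of the lists has a column per library, so no effect of LPS or IL-4, no time course, no spread between replicates and no depth could be computed for any ribosomal protein gene, and no value below has a replicate error. All 8 macrophage markers examined (such as Csf1r, Adgre1 and Spi1) were accessible at a start site, by the measure used below, but so were 8 of 17 markers of 7 other cell types. Intervals for shares are 95% Wilson intervals and cover only counting over genes, and no test between genes was made.

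A start site peak, meaning a reference peak that overlaps the 1000 bp to either side of any annotated start site of the gene, was found at 77 of the 80 genes (96.25%, interval 89.5% to 98.7%). Among all protein-coding genes the share was 56.5%. All 30 small subunit genes, all 43 large subunit genes and all 3 stalk genes had one. The 3 genes without a start site peak were Rpl10l, Rpl39l and Rpl3l. All 3 are paralogs: RPL10L and RPL39L are known from testis, and RPL3L from skeletal muscle and heart. Rps27l, whose protein resembles RPS27 and whose transcription is induced by p53, was the only paralog with a peak, and its best summit score was 1995.

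The genes that lacked a peak differed in their surroundings. At Rpl10l on chromosome 12 the nearest reference peak was 1089986 bp away, and no extended region lay within 50 kb. At Rpl39l the nearest reference peak lay 1038 bp from the start site, just outside the limit of 1000 bp, and 3 extended regions lay within 50 kb. At Rpl3l, which neighbours Rps2 on chromosome 17, the nearest reference peak was 3204 bp away and 9 extended regions lay within 50 kb.

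Sequences around the principal start site are shown for the genes at both ends of the score range in each subunit, for the genes without a peak, and for Rps21. Rps21 was chosen because its first transcribed bases form a TOP motif in both GENCODE and RefSeq. Each window runs from 100 bases before to 20 bases from the start site on, in the direction of transcription (mm10, from the GRCm38.p6 assembly). The window of Rpl15 starts 68 bases before, to keep out an exon of the neighbouring gene Nkiras1. Capitals mark the searched motifs (on either strand) and, for Rps21, the pyrimidine run at the start site. In Rps21 this run shares 3 bases with the CCGCCC that begins 3 bases before the start site.
Rpl15 (chr14:18271048-18271135, minus strand): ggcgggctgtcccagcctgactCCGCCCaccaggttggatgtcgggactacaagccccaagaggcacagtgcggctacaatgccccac
Rpl19 (chr11:98026824-98026943, plus strand): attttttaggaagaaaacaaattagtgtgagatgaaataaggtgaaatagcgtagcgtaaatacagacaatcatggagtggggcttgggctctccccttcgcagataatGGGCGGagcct
Rps19 (chr7:24884271-24884390, plus strand): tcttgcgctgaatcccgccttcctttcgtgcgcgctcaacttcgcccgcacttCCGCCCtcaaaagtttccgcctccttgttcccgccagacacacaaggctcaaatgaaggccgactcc
Rps29 (chr12:69159167-69159286, minus strand): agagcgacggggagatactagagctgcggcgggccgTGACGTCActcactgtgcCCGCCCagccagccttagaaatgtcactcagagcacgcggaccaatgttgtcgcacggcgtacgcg
Rps4x (chrX:102189375-102189494, minus strand): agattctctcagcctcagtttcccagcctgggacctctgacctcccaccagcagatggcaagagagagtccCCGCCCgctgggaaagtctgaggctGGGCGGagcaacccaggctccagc
Rpl10l (chr12:66284382-66284501, minus strand): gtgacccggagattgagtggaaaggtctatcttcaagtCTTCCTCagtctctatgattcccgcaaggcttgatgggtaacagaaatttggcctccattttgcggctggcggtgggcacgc
Rpl39l (chr16:10170128-10170247, plus strand): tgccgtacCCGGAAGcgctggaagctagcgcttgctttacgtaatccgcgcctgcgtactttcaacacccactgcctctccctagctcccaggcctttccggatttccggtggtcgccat
Rpl3l (chr17:24727720-24727839, plus strand): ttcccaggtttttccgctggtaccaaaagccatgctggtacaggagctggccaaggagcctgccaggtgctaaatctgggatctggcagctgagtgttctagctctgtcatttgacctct
Rps21 (chr2:180257277-180257396, plus strand): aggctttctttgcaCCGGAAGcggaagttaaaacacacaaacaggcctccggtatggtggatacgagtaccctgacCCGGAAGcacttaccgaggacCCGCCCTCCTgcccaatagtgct

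Rpl15 was the highest scored gene of the large subunit, and Rps19 and Rps29 were those of the small subunit. Their sequences each held a CCGCCC, the core of SP/KLF sites on the other strand. It began 46 or 47 bases before the principal start site. The RefSeq start lies 81 bases further downstream at Rpl15 and 305 at Rps19, so the shared distance depends on the annotation. The best summits of Rps19 (134 bp), Rps29 (-124 bp) and Rpl19 (-261 bp) lie outside the windows shown. A relation of these motifs to the score was not tested. Rps29 also held TGACGTCA, the full cAMP response element. Rps4x, the lowest scored gene of the small subunit, had the same CCGCCC at 29 bases before the start site and GGGCGG across it. Rpl19, the lowest scored gene of the large subunit, held only GGGCGG, which began at the 10th transcribed base. Among the genes without a peak, Rpl10l held a PU.1 core on the other strand, which reads CTTCCTC on the strand shown. Rpl39l held the ETS core CCGGAAG, and Rpl3l held no searched motif in this window. A match is a string of letters and does not show that a factor was bound. Rps21 held CCGGAAG at 86 and 24 bases before the start site, and its pyrimidine run was 7 bases long.

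The best summit score of a gene is the highest score among the summits in its start site peaks. Its median over the 77 genes was 1594 (interquartile range 1394 to 1890, range 613 to 2415). For the 12402 protein-coding genes with a start site peak the median was 1456 (interquartile range 1071 to 1799). Of the 77 genes, 49 scored above the median of coding genes, 1 (Rpsa) at it and 27 below it. In the top 25% of coding genes (a score of 1799 or more) there were 23 (29.9%), against 25.5% of coding genes, so this share is near the background. In the bottom 25% (1071 or less) there were 7 (9.09%), against 25.5% of coding genes. Scores are tied often, with 219 distinct values in the whole list and 52 among these genes.

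**Figure D1:**
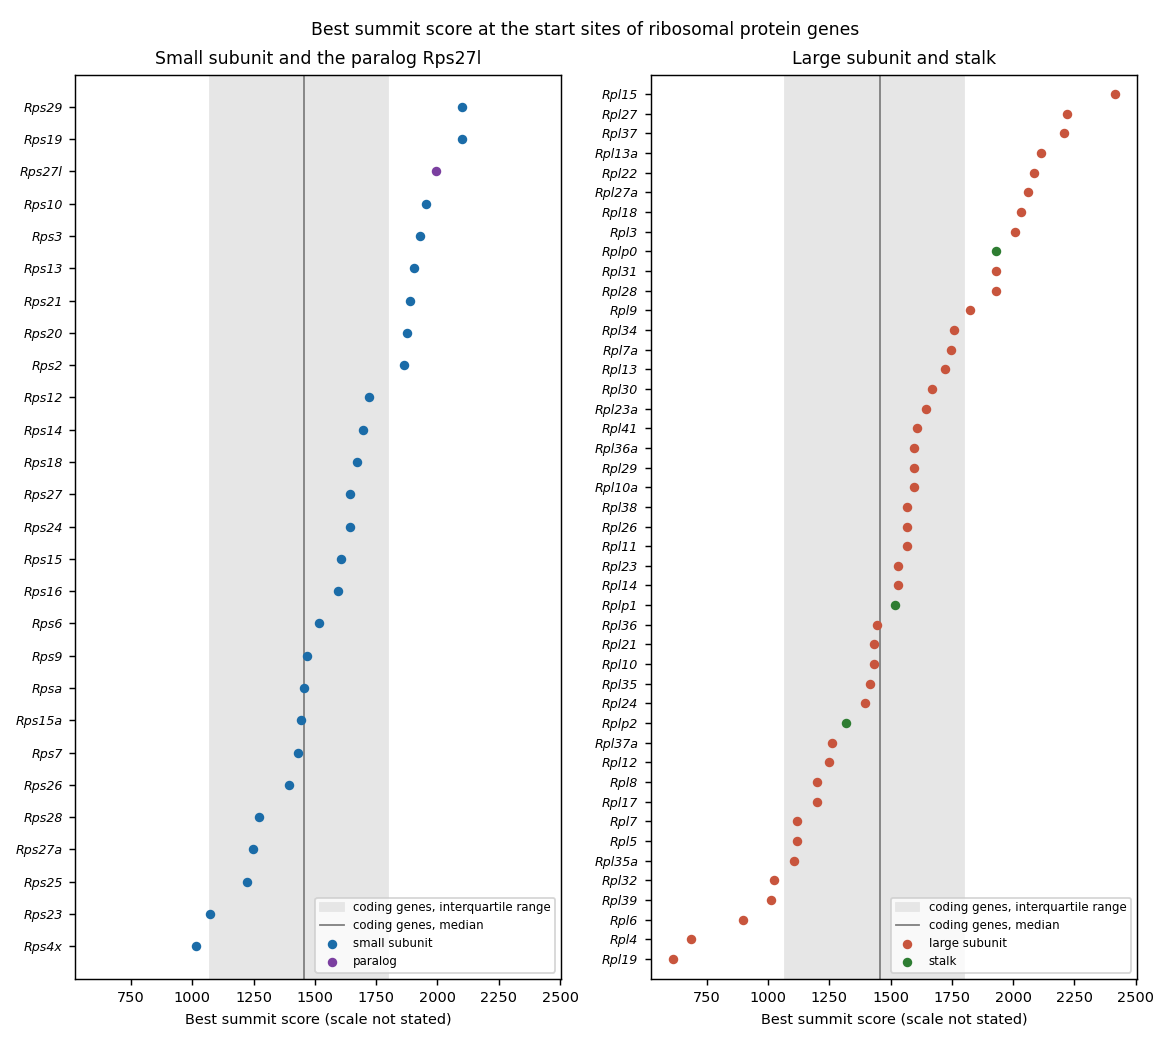
Best summit score (x axis, scale not stated) of 72 ribosomal protein genes with a start site peak, ordered within 2 panels. Points are single genes coloured by subunit, the grey band is the interquartile range of all coding genes with a start site peak (1071 to 1799) and the line their median (1456). More points lie right of the line than left of it, and Rpl19 and Rpl4 lie far to the left.

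Among the proteins of the small subunit the median was 1600 (n = 30, range 1013 to 2100). Rps19, the gene most often mutated in Diamond-Blackfan anaemia, and Rps29 shared the highest score of 2100. They were followed by genes such as Rps10 (1955), Rps3 (1929), Rps13 (1903), Rps21 (1890), Rps20 (1877) and Rps2 (1864), and 9 genes of this subunit were in the top 25%. Between there and the median of coding genes were, among others, Rps12 (1721), Rps14 (1696), Rps18 (1670), Rps24 and Rps27 (1644 each), Rps15 (1606), Rps16 (1594), Rps6 (1518) and Rps9 (1468). RPS6 is the classical substrate of the S6 kinases. Below the median of coding genes lay 9 genes, among them Rps15a (1443), Rps7 (1431), Rps26 (1394), Rps28 (1272), Rps27a (1248), Rps25 (1224), Rps23 (1071) and Rps4x (1013). Only Rps23 and Rps4x of this subunit were in the bottom 25%.

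Among the proteins of the large subunit the median was 1568 (n = 43, range 613 to 2415), and 12 genes were in the top 25% and 5 in the bottom 25%. Rpl15 had the highest score of all, 2415, which is the 99.9th percentile of coding genes: 11 protein-coding genes scored higher. Others in the top 25% were Rpl27 (2219), Rpl37 (2206), Rpl13a (2114), Rpl22 (2087), Rpl27a (2061), Rpl18 (2034), Rpl3 (2008), Rpl28 and Rpl31 (1929 each) and Rpl9 (1825). The genes between there and the median of coding genes were Rpl34 (1760), Rpl7a (1747), Rpl13 (1721), Rpl30 (1670), Rpl23a (1644), Rpl41 (1606), Rpl10a, Rpl29 and Rpl36a (1594 each), Rpl11, Rpl26 and Rpl38 (1568 each), and Rpl14 and Rpl23 (1531 each). RPL13A is known in myeloid cells for a role outside the ribosome, as a part of a complex that represses translation of inflammatory mRNAs. Rpl11 (1568) and Rpl5 (1117), whose proteins bind MDM2 when ribosome assembly fails, were apart in score, at percentiles 57.5 and 27.5. Below the median of coding genes but above the bottom 25% were, besides Rpl5, Rpl36 (1443), Rpl10 and Rpl21 (1431 each), Rpl35 (1418), Rpl24 (1394), Rpl37a (1260), Rpl12 (1248), Rpl8 and Rpl17 (1200 each), Rpl7 (1117) and Rpl35a (1106).

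At the lower end were Rpl19 (613), Rpl4 (685), Rpl6 (900), Rpl39 (1013) and Rpl32 (1025). Rpl19 and Rpl4 were the only ribosomal protein genes whose best score was under the median of all 84660 summits, 737. Rpl19 had 3 summits in its start site peaks, with scores of 613, 554 and 515. Rpl4 holds 5 snoRNA genes, the most of any of the genes, and shares its start site peak with Zwilch. The score is the authors' value for a summit, and it was not compared with transcription.

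The stalk is the flexible arm of the large subunit that recruits translation factors. Rplp0 scored 1929, Rplp1 1518 and Rplp2 1320, none of them near either end of the range. The 4 genes on chromosome X were Rpl36a (1594), Rpl10 (1431), Rpl39 (1013) and Rps4x (1013), with a median of 1222. The autosomal genes had a median of 1594. Coding genes on chromosome X with a start site peak had a median of 1260, so that the lower level of the X-linked ribosomal protein genes lay beside a lower level of that chromosome's genes. The mice were male, so that these cells carry a single chromosome X, and its part in the lower scores was not tested.

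Most of the genes had a start site peak wider than is usual for a coding gene. The start site peak with the best summit was 429 bp wide at the median (367 to 536 bp between the quartiles, 189 to 1074 bp in all). For coding genes with a start site peak the median was 356 bp (interquartile range 255 to 479 bp). Of the 77 genes, 60 had a peak wider than the median of coding genes and 17 did not. By group, this was true of 24 of 30 small subunit genes, 32 of 43 large subunit genes, all 3 stalk genes and Rps27l. The widest peaks were those of Rps29 (1074 bp), Rps19 (925 bp), Rpl10 (855 bp), Rps25 (754 bp) and Rplp2 (731 bp). The narrowest belonged to Rpl39 (189 bp), Rps4x (192 bp), Rpl6 (207 bp), Rpl4 (223 bp) and, with 226 bp each, Rpl19 and Rpl36.

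Rps29 and Rps19 had the widest peaks and the highest scores of the small subunit, and Rpl39, Rps4x, Rpl6, Rpl4 and Rpl19 were low in both measures. Rpl10, Rps25 and Rplp2 had wide peaks with scores below the median of coding genes. Over the 77 genes the Spearman correlation of score and width was 0.392, and over the 12402 coding genes it was 0.731. Score and width were taken from the same peak, and genes are not independent replicates. The width also depends on where a peak was split. At 5 genes (Rpl5, Rpl19, Rpl39, Rps25 and Rps27l) neighbouring start site peaks touched without a gap. Joined, the pair at Rpl19 would span 559 bp and the pair at Rpl39 553 bp, in place of 226 bp and 189 bp.

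**Figure D2:**
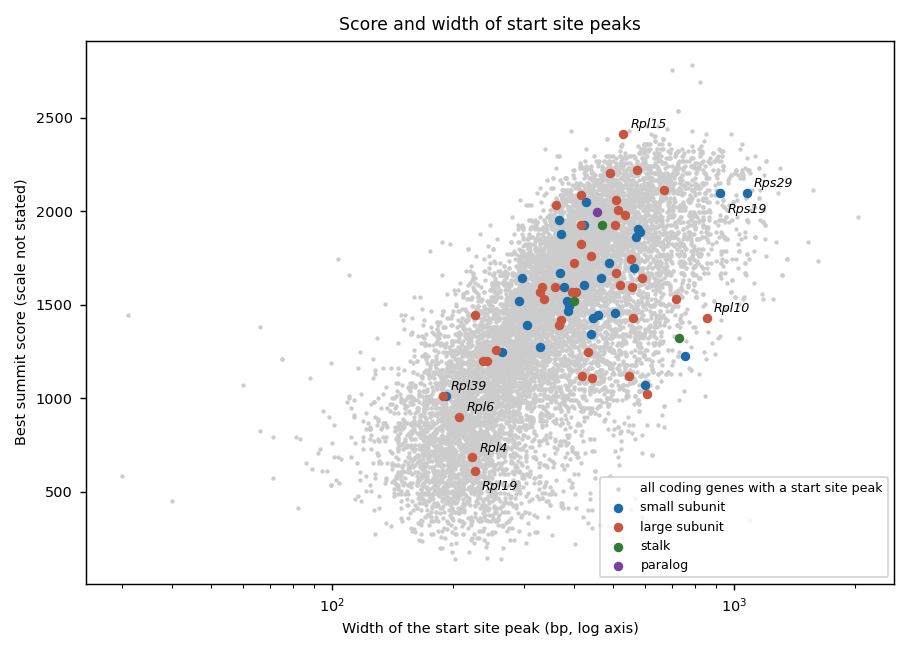
Best summit score (y axis, scale not stated) against the width of its start site peak (x axis, bp, log scale). Grey points are all 12402 coding genes with a start site peak and coloured points the 77 ribosomal protein genes by subunit. Rps19 and Rps29 lie at the upper right, Rpl4, Rpl6, Rpl19 and Rpl39 at the lower left, and Rpl15 is the highest coloured point, at a width of 530 bp.

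The summits lay close to the start sites. Relative to the principal start site (the start of the transcript ranked first by the annotation), the best summit was at a median of -39 bp (interquartile range -69 to 4 bp), where negative values are upstream. For coding genes with a start site peak the median was -41 bp, but the interquartile range was wider (-114 to 38 bp). The medians turned around with RefSeq start sites, at -60 bp for these genes and -49 bp for coding genes. The best summit was upstream of the principal start site in 55 genes (71.4%) and downstream in 22, and it was upstream in 66.2% of coding genes, which is near the same share. With RefSeq start sites these shares were 85.7% and 70.9%. It was within 100 bp of the principal start site in 60 of 77 genes (77.9%), and in 51.7% of coding genes. With the nearest annotated start site in its place, these shares were 85.7% (66 genes) and 65.4%.

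The principal start site lay inside a reference peak in 74 of 77 genes (96.1%), against 76.8% of coding genes. The exceptions were Rpl30, Rpl35 and Rps10, in which another annotated start site lay inside the peak and the best summit was 334, 436 and 228 bp downstream of the principal start site. At those genes the best summit was at -47, -66 and -73 bp from the nearest annotated start site.

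The best summit lay beyond 200 bp from the principal start site in 9 of 77 genes, against 4104 of 12402 coding genes. Rpl10 had its best summit at -539 bp in a peak of 855 bp that also covered the start site. Rps27a, which encodes ubiquitin fused to the ribosomal protein, was the extreme on the other side, with its best summit (1248) at 1735 bp inside the gene, 297 bp from the nearest annotated start site. The peak that covers the principal start site of Rps27a had summits of 1082 and 1002. The 76 bases around the best summit at 1735 bp, the length of a read, occur 3 times in the genome, and Rps27a was the only one of the 77 genes whose summit stretch was not unique. The effect of reads from the other copies on its score was not tested.

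**Figure D3:**
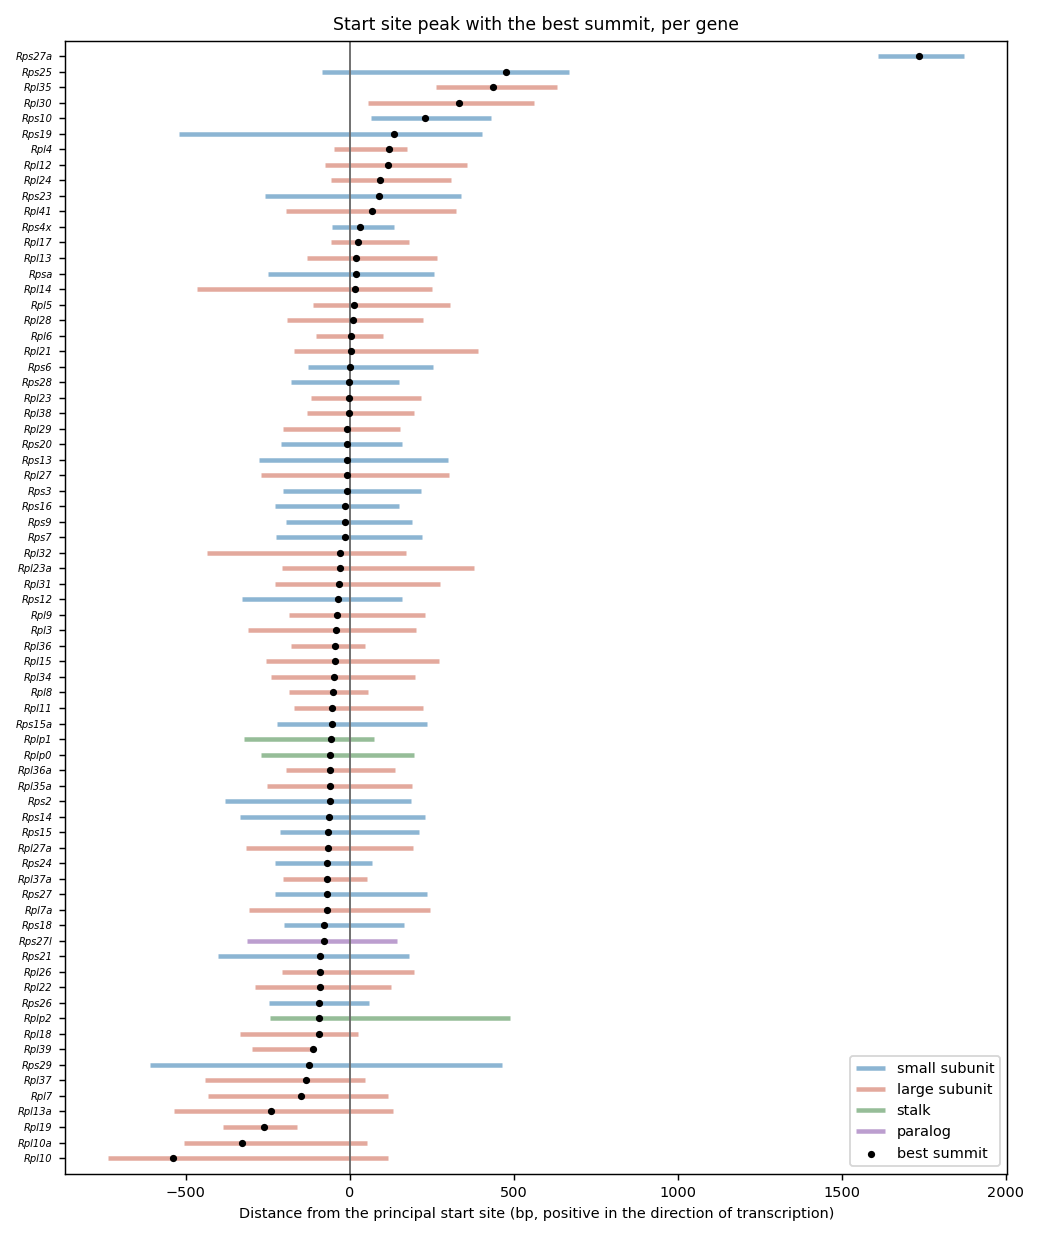
Extent of the start site peak with the best summit (bars, coloured by subunit) and the best summit (black points) for 72 of the 77 genes, as distance from the principal start site in bp, positive in the direction of transcription. Genes are ordered by the summit position. The bar covers the start site in 66 of 72 genes, and Rps27a stands apart at 1735 bp.

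Sequence that recurs exactly elsewhere in the genome lay near few of the summits. Copies with a mismatch were not counted, and whether a repeated stretch came from a copy of the gene was not examined. In 71 of 77 genes every stretch of 76 bases within 200 bp of the best summit was found once. The other 6 genes were Rps29 (56.1% of stretches found once), Rps27a (81.3%), Rpl12 (84.4%), Rplp1 (86.2%), Rpl31 (95.7%) and Rpl37a (98.8%). All stretches were unique at Rpl19, Rpl4 and Rpl6, the 3 lowest scored genes. Of 294 annotated pseudogenes of ribosomal proteins, 14 (4.76%) had a start site peak, with a median best score of 529.5 and 1 of these peaks within reach of a coding start site.

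A single start site peak was found at 37 of the 77 genes (48.1%), as in 47.7% of coding genes with a start site peak, whereas 30 genes had 2, 8 genes had 3 and Rpl3 and Rps24 had 4. Together the genes had 129 start site peaks with 142 summits. Away from the start sites, 10 of these genes contained 17 further reference peaks, a count that was not compared with coding genes. The extended region at the best summit held a single reference peak in 48.1% of the genes and in 51.2% of coding genes, with median widths of 2001 and 2010 bp. By this count the start regions of the ribosomal protein genes resembled those of other genes.

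In 14 of 77 genes (18.2%) the start site peak was also within 1000 bp of the start site of another coding gene, against 21.5% of coding genes, which is near the background. The pairs were Rpl12 with Lrsam1, Rpl15 with Nkiras1, Rpl18 with Sphk2, Rpl35 with Arpc5l, Rpl35a with Iqcg, Rpl4 with Zwilch, Rpl7 with Rdh10, Rpl7a with Med22, Rpl9 with Lias, Rps18 with Vps52, Rps25 with Trappc4, Rps27 with Rab13, Rps28 with Ndufa7, and Rps10 with the readthrough gene RPS10-NUDT3. At these peaks the score cannot be assigned to either gene. The highest scored gene, Rpl15, is among them. NKIRAS1, the product of its neighbour, is an inhibitor of NF-κB signalling.

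Annotated snoRNA genes lay inside 29 of the 77 genes (37.7%), against 1.68% of coding genes with a start site peak. These hosts contained 56 snoRNA genes. Their median best score was 1644, and that of the other 48 genes was 1568. The genes were short, with a median length of 3328.5 bp against 23276 bp for coding genes with a start site peak, and with a median of 5 exons. They were spread over 19 chromosomes, with 14 on chromosome 7 and none on chromosome 19.

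Within 50 kb of the most upstream start site, the 80 genes had a median of 8 extended regions (interquartile range 5 to 10, range 0 to 19). All coding genes had a median of 4, and those with a start site peak a median of 7. The richest surroundings were those of Rplp2 (19), Rps14 (18), Rpl3 (17), Rps18 (16), and Rpl12 and Rps27l (14 each). The poorest were those of Rpl10l (0) and of Rpl7, Rpl37a, Rps12 and Rps23 (2 each). The best score and this number were only weakly related over the genes (Spearman correlation 0.213) and over coding genes (0.0841). Windows of neighbouring genes overlap at 6 of the genes, among them Rpl41 and Rps26, and Rps2 and Rpl3l, so that these were not counted over separate stretches.

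**Figure D4:**
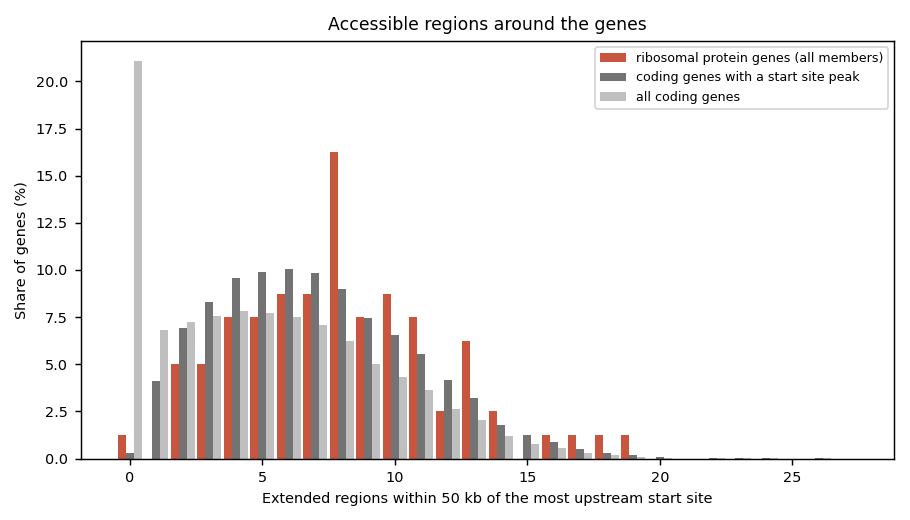
Share of genes (y axis, %) by the number of extended regions within 50 kb of the most upstream start site (x axis), for the 80 ribosomal protein genes, coding genes with a start site peak and all coding genes. All coding genes include many with no region nearby, and the ribosomal protein genes (median 8) lie close to coding genes with a start site peak (median 7).

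Short sequence motifs were searched from 250 bases before to 50 bases after the principal start site, on both strands. CCGGAAG, the core of ETS and GABP sites, was found in 24 of 77 genes (31.2%, interval 21.9% to 42.2%), against 17.8% of coding genes with a start site peak. Within 100 bp of the best summit it was found in 30 genes (39.0%), against 16.8%. GGGCGG, the SP/KLF core, was found in 40 genes (51.9%) and was less frequent than in coding genes (62.6%), whose share lay just inside the interval of 41.0% to 62.7%. The promoters also had a lower GC content, 55.4% ± 6.65 (SD over 77 genes), than those of coding genes, 60.2% ± 9.55 (SD over 12402 genes), whereas the observed to expected ratio of CpG had a median of 0.854 against 0.755.

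For the other motifs the comparison with coding genes depended in part on the window. Around the principal start site, CRE was the only one of them whose interval did not contain the share of coding genes. TGACGTNA, the cAMP response element, was found in 8 genes (10.4%, interval 5.36% to 19.2%), against 5.17%, but near the best summit its interval did contain it (9.09%, interval 4.47% to 17.6%, against 5.11%). With the RefSeq start site it again did not (11.7%, interval 6.27% to 20.7%, against 5.34%). TATAAA, the TATA box, was found in 9 genes (11.7%) against 7.35%. AANATGGC, a YY1 core, was found in 10 genes (13%) against 8.55%, and CACGTG, the E-box bound by MYC and USF, in 9 genes (11.7%) against 9.91%. GCATGCGC, the NRF1 core, was found in 4 genes (5.19%) against 5.21%. For factors of macrophages, GAGGAAG, the core bound by PU.1, was found in 15 genes (19.5%) against 13.8%, and TGANTCA, the AP-1 site, in 4 genes (5.19%) against 4.85%. Within 100 bp of the best summit the shares of TATAAA (10.4%, interval 5.36% to 19.2%, against 2.98%) and AANATGGC (13%, interval 7.21% to 22.3%, against 6.41%) lay above those of coding genes, and with the RefSeq start site that of AANATGGC did too (15.6%, interval 9.15% to 25.3%, against 8.89%). Within 100 bp of the best summit AP-1 was found in 1 gene (1.30%), against 5.75%. ETS and PU.1 letters can overlap where GGAAG is shared.

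A TOP start, meaning C at the first transcribed base and pyrimidines at the next 4, was read on the sense strand only. It was present at the principal start site of 8 genes (10.4%), against 2.27% of coding genes. They included Rpl4, Rpl32, Rpl36, Rpl37, Rpl37a, Rps21 and Rps24. At the start site of the RefSeq mRNA it was present in 14 genes (18.2%), against 2.37%. Rpl32 and Rps21 were in both sets, and the principal and RefSeq start sites were the same base in only 18 of the 80 genes. The count therefore depends on the exact base that an annotation gives as the start.

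A run of 8 or more pyrimidines anywhere within 100 bases of the principal start site does not need the exact base. This measure was added after the TOP counts were seen. On the sense strand such a run was present in 67 of 77 genes (87.0%, interval 77.7% to 92.8%), against 53.7% of coding genes. On the other strand it was present in 33 genes (42.9%, interval 32.4% to 54.0%), against 56.6%. The genes thus differed from coding genes in opposite directions on the 2 strands. The 10 genes without a run on the sense strand were Rpl3, Rpl7, Rpl21, Rpl35, Rplp0, Rplp2, Rps23, Rps25, Rps26 and Rps29.

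**Figure D5:**
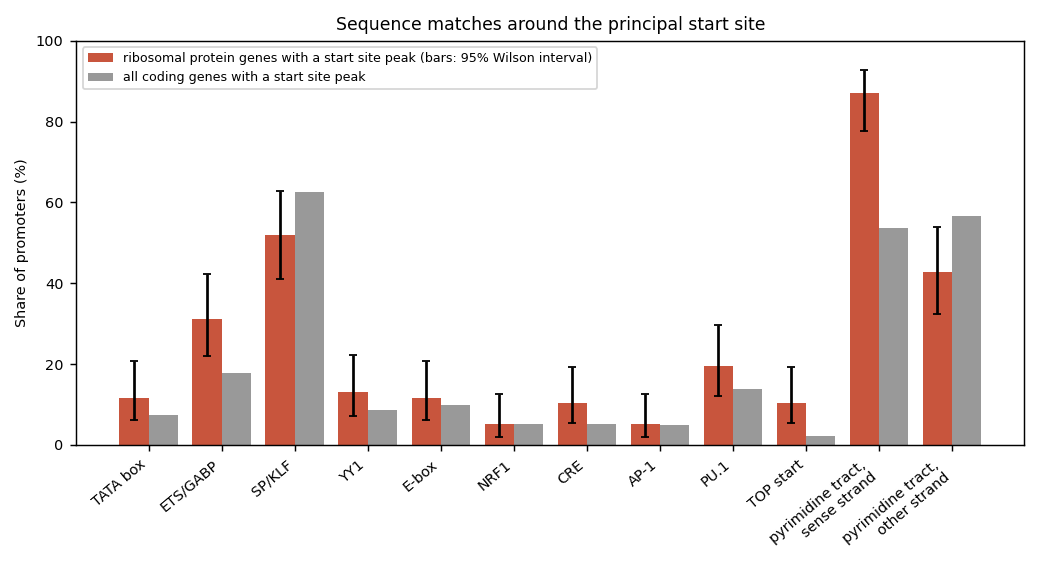
Share of promoters (y axis, %) with each motif around the principal start site, for the 77 ribosomal protein genes with a start site peak (error bars, 95% Wilson intervals) and for all 12402 coding genes with one. The sense strand pyrimidine tract (87.0% against 53.7%) shows the widest gap. The shares of ETS/GABP, CRE and TOP starts also lie above those of coding genes, which their intervals exclude. The tract on the other strand lies below (42.9% against 56.6%).

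Related genes were measured in the same way. Ribosomal protein genes that the symbol rule misses had a start site peak in 7 of 8 cases, among them Rpl22l1 (1825), Rps3a1 (1773), Fau (1696), Rpl36al (1606), Rpl7l1 (1048) and Rack1 (1036), but not Rps27rt. Fau encodes a ubiquitin-like protein fused to a ribosomal protein. None of 6 coding genes named as pseudogenes of ribosomal proteins had a start site peak. Elongation factors and other mRNAs with a TOP motif had one in 15 of 15 genes, with a median best score of 1619, led by Tpt1 (2362) and Eef1g (2140). Genes of ribosome biogenesis had one in 24 of 24, with a median of 1518, between 706 for Pes1 and 2232 for Ncl.

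The 78 mitochondrial ribosomal protein genes, which encode the proteins of the organelle's own ribosome, all had a start site peak. Their median best score was 1357, their median width 363.5 bp and their median number of extended regions 7.5. The cytosolic genes had 1594, 429 bp and 8. Of the mitochondrial ribosomal protein genes, 35 shared the start site peak with another coding start, compared with 14 of the 77 cytosolic genes.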

How the data were processed

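ATAC-seq reads (single-end, 76 bases) of the 18 libraries had been aligned to mm10 and peaks called by the authors with MACS2 2.2.6, after Trimmomatic 0.39 and SAMtools 1.9 (versions from the submitters' processing notes). Only peaks that passed a strict q-value in single libraries and overlapped in replicates entered the reference set. Duplicates were kept, so that scores can include PCR copies, and since no shift of reads for the Tn5 cut is named, summits may be displaced by some bases. The deposited lists hold positions and, for summits, a score of the authors whose scale is not stated. 0 columns belonged to other samples. Depth per library is unknown, and so is its precision.

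Gene models came from GENCODE M21 and sequence from GRCm38.p6. Peaks, summits and extended regions were assigned to genes with Python 3.11.15, numpy 2.4.6 and pysam 0.24.0, and intervals were calculated with scipy 1.17.1. The assignment to genes was tested on simulated data, with a single peak and summit per gene. The sequence searches were not tested in this way. The principal start site was that of the transcript with the best APPRIS rank, then support level, then length. RefSeq start sites came from the mRNA with the lowest accession. Positions count from 1.

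The members, gene lists, motifs and named genes (no peak, 5 highest and lowest in each measure, chromosome X, stalk, paralogs, lists of under 10 genes) were chosen with earlier results of these data known. Rps4l of the paralog list is not a coding gene in this annotation. Start site windows of 500 and 2500 bp, gene windows of 20000 and 100000 bp, other start sites, summits and member sets were tried as alternatives. Values of 5 single members, of 1 gene of the other lists and 1 sequence are not reported here, but the members are counted in all totals. The comparison of LPS and IL-4 with untreated cells was not made, because no list has a value per library.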

Additional observations from a re-analysis of the deposited data

How the results depend on the processing

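The share of genes with a start site peak ranged from 93.75% (peaks with a summit at or above the median score) to 97.5% (2500 bp, or extended regions) over the windows, start sites and region types tried. For all coding genes it was 50.7% with summits at or above the median score and 52.5% with the principal start site only. Within 500 bp it was 54.9% of coding genes, and within 2500 bp 59.9%. Without the paralogs the share of ribosomal protein genes was 100%, because the 3 genes without a peak are paralogs. The median best score (1568 to 1594) and the median width (426 to 434 bp) stayed within their own intervals under all their alternatives. The median number of extended regions around a gene was 4 within 20000 bp, 15 within 100000 bp and 11 when reference peaks were counted, where all coding genes had 2, 9 and 6 and those with a start site peak 3, 12 and 9. The median summit position was -60 bp from the RefSeq start site (-49 bp for coding genes), an alternative chosen after seeing the data. Of 39 alternatives for the motif shares, 38 stayed inside the main interval and AP-1 near the summit (1.30%) did not. For the sense strand pyrimidine tract, added after seeing the data, the share was 98.7% with 6 bases, 67.5% with 10 and 93.5% at the RefSeq start site, against 85.8%, 29.7% and 53.2% of coding genes. On the other strand it was 81.8%, 26% and 35.1%, against 89.4%, 30.3% and 56.2%. No paired analysis was possible because the lists carry no values per library, and for the same reason no library could be left out.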
